A study of Mus musculus with 8 samples.

Results

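A set of 10 genes that push cells toward a mesenchymal state or hold them back from it was examined in RNA sequencing of TGF-β-treated mouse kidney cells, 7 transcription factors that drive epithelial-mesenchymal transition (EMT; Snai1, Snai2, Zeb1, Zeb2, Twist1, Twist2 and Prrx1) and 3 factors that keep epithelial identity (Grhl2, Ovol1 and Esrp1). They were taken by gene symbol from the deposited table, which held all 10 among its 22322 genes, and all 10 had enough counts to be tested. The study compared 4 libraries of primary renal fibroblasts infected with a GFP adenovirus (Ad-GFP, genotype given as WT) with 4 infected with a Cre recombinase adenovirus (Ad-Cre, genotype given as suv39h1 knockdown). Both groups received 5 ng/ml TGF-β for 48 hours, so no unstimulated cells enter the comparison. For the mice, neither strain, age and sex nor the allele on which Cre acts is given in the sources used here. Nothing says that the 4 replicates are separate cultures or separate animals, so every p-value measures the spread between these samples alone, and that spread may be technical.

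EMT is the conversion of polarised, tightly joined epithelial cells into motile mesenchymal ones, and in kidney fibrosis a partial form of it is described in injured tubule cells. SNAI and ZEB zinc finger proteins bind E-box sequences in the promoters of epithelial genes such as Cdh1 (E-cadherin) and repress them, TWIST proteins are basic helix-loop-helix factors that act on the same programme, and PRRX1 is a homeobox factor of mesenchymal cells. GRHL2 and OVOL proteins act in the other direction, in part by repressing Zeb1, and ESRP1 is an RNA-binding protein that sets epithelial splicing patterns. SUV39H1, which places repressive methylation on lysine 9 of histone H3, has been described as a partner of SNAI1 at the Cdh1 promoter.

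The libraries held 15879244 to 23940043 counts, the 4 Ad-Cre libraries (at least 18006938) all being deeper than the 4 Ad-GFP libraries (at most 17930632). Levels are given as CPM, counts scaled to a common library size. Suv39h1, the check of the labels, fell from 28.9 ± 0.77 CPM under Ad-GFP to 23.1 ± 1.6 CPM under Ad-Cre (SD, n = 4 per group; edgeR adjusted p = 3.293e-05). By counts over the whole gene this is 79.6% of Ad-GFP, and such counts do not show whether a part of the transcript is missing. A fall alone is a weak check, since 20.5% of all tested genes were lower at an adjusted p under 0.05. The antisense gene Gm14820 covers 14.55% of the exonic bases of Suv39h1. Against the fibroblast label, transcripts of epithelial genes were abundant. The keratin gene Krt8 was at 773 and the tight junction gene Cldn4 at 632 FPKM (fragments scaled to gene length and library size) in Ad-GFP, against 35.1 FPKM for the collagen gene Col1a1 and 116 FPKM for the intermediate filament gene Vim. The other fibroblast genes of the list, named after their values were seen, were Col1a2 at 36.7, Col3a1 at 9.97, Pdgfrb at 5.21, Thy1 at 4.2, Dcn at 2.4, Pdgfra at 0.968 and Lum at 0.0725 FPKM in Ad-GFP. Fibroblast transcripts were thus present beside the epithelial ones, and of these genes only Lum had too few counts to be tested. In bulk RNA, fewer cells of a type and less RNA per cell cannot be told apart.

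The epithelial factors Esrp1 and Grhl2 stood above every EMT driver in all 8 libraries. In Ad-GFP, Esrp1 had the highest length-normalised level of the 10 genes, at 36.2 ± 1.0 FPKM (SD, n = 4), and was above 82.2% of tested genes by its mean over all libraries. Grhl2 followed at 17.8 ± 0.73 FPKM. The best expressed driver was Zeb2 at 7.45 ± 0.43 FPKM, and Zeb1 (3.81 ± 0.27) and Twist1 (3.47 ± 0.48) came next with overlapping ranges in Ad-GFP. Snai2 was at 1.51 ± 0.32 FPKM. Twist2 (0.81), Ovol1 (0.53), Snai1 (0.452) and Prrx1 (0.355 FPKM) lay at the bottom, where each gene's Ad-GFP range overlapped that of its neighbour in the order. The same genes filled the first 8 places in Ad-Cre, where Zeb1 (1.7 to 2.17 FPKM) and Twist1 (1.3 to 1.57 FPKM) no longer overlapped, and Snai1 and Prrx1 exchanged the last places within their spread.

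**Figure D1:**
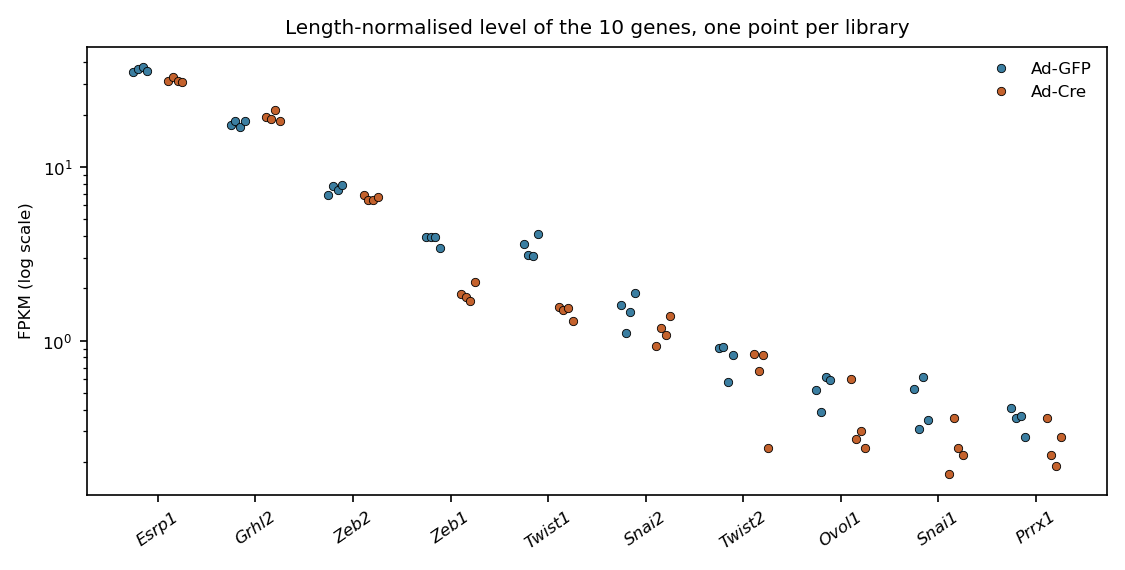
Level per gene length (FPKM, log scale) of the 10 genes, ordered by their Ad-GFP mean, with 1 point per library for 4 Ad-GFP and 4 Ad-Cre libraries. Esrp1 and Grhl2 lie above all EMT drivers in every library, and Zeb1 and Twist1 are the drivers whose groups separate most.

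The 2 groups were compared by edgeR's quasi-likelihood test, with p-values adjusted over all 13337 tested genes and a gene called changed at an adjusted p under 0.05. Of the 10 genes, 4 fell (Twist1, Zeb1, Esrp1 and Zeb2), 1 rose (Grhl2) and 5 did not pass. Over all tested genes 20.5% were called lower and 19.8% higher, 40.3% in all, so that 5 called of 10 is close to the background and is not a result about these genes as a set. The groups did not overlap in the same 5 genes, 4 lower and 1 higher, against 18.2% and 17.2% of all tested genes. The median log2 fold change of the 10 was -0.38, against 0 for all tested genes. This median lies between Snai2 (-0.36) and Prrx1 (-0.40), scarce genes that were not called, so it too is only a description. With upper-quartile scaling the calls over all genes leaned lower, at 2164 higher and 3089 lower, and those of the 10 genes stayed at 1 higher and 4 lower. Both sides of the programme held a fall, since 3 of 7 drivers and 1 of 3 epithelial factors were lower.

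**Figure D2:**
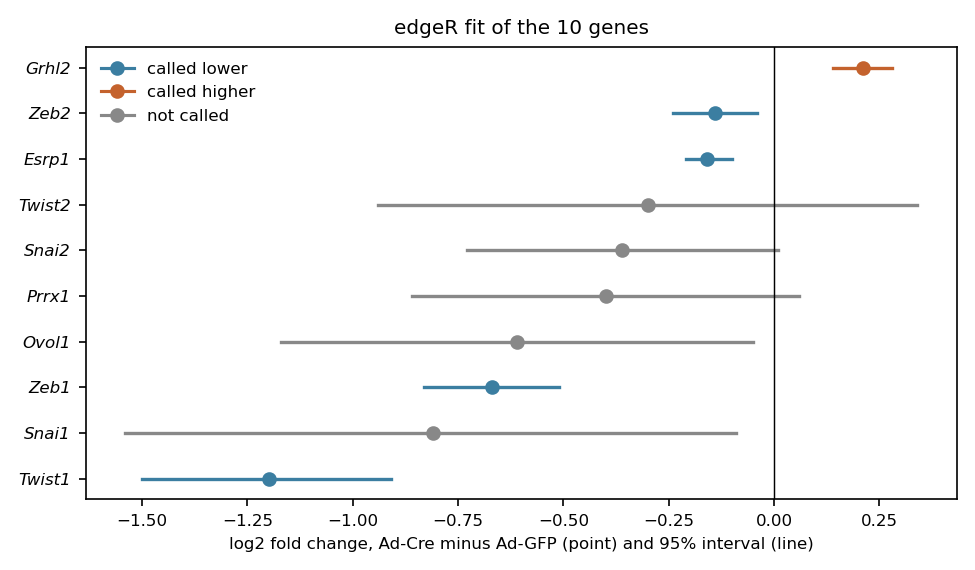
Log2 fold change of each gene, Ad-Cre minus Ad-GFP (point), with its 95% interval from the edgeR fit (line), n = 4 per group. Intervals are narrow for the abundant Esrp1 and Grhl2 and wide for Snai1, Twist2, Ovol1 and Prrx1, which had 5 to 36 counts in a library.

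Twist1, the basic helix-loop-helix driver best known from mesoderm and neural crest, showed the largest fall of the 10. It lies on chromosome 12 at 33957671 to 33959829, plus strand (GRCm38). In Ad-GFP replicates 1 to 4 it was at 5.79, 5.03, 4.96 and 6.63 CPM, and in Ad-Cre replicates 1 to 4 at 2.57, 2.48, 2.55 and 2.13 CPM. Every Ad-Cre library lay below every Ad-GFP library. The log2 fold change was -1.20 ± 0.14 (SE, n = 4 per group), 43.5% of Ad-GFP with a 95% interval of 35.4% to 53.4% (edgeR adjusted p = 2.091e-07). Of all tested genes, 1.79% were called at 50% of Ad-GFP or less. The 17 alternative analyses that could test it all called the fall. The paralog Twist2 was at 0.768 to 1.22 CPM in Ad-GFP and 0.317 to 1.2 CPM in Ad-Cre, and its 95% interval of 52.3% to 127% of Ad-GFP is wide and includes no change (edgeR adjusted p = 0.476). It had 7 to 25 counts a library. An antisense gene, Gm29100, covers 46.5% of the exonic bases of Twist2, and the sources used here do not say whether strand was used in counting.

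The 250 bases before the Twist1 start (chr12:33957421-33957670, plus strand, RefSeq on GRCm38.p6), shown because this gene moved most, hold no copy of the E-box CAGGTG or of its reverse complement CACCTG.
Twist1: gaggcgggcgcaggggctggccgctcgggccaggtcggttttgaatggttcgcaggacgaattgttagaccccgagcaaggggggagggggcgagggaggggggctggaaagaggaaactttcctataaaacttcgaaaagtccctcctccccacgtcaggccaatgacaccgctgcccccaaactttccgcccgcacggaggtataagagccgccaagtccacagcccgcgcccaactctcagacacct

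Zeb1, a repressor with zinc finger clusters at both ends, was the second driver to fall clearly. It is on chromosome 18 at 5591860 to 5775467, plus strand. The Ad-GFP libraries held 17.4, 16.3, 15.2 and 15 CPM of it and the Ad-Cre libraries 10.1, 9.67, 9.56 and 10.8 CPM, in replicate order. The groups lie far apart with no overlap. The Ad-Cre level came to 62.7% (95% interval 56.2% to 70%), on the log2 scale -0.67 ± 0.077 (SE, 4 libraries a group; edgeR adjusted p = 9.888e-08). All 18 alternatives called it lower.

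The size of the Zeb1 fall differed between the deposited units. By the authors' FPKM, which falls from 3.93, 3.94, 3.97 and 3.41 in Ad-GFP to 1.85, 1.78, 1.7 and 2.17 in Ad-Cre, the Ad-Cre mean was 49.2% of Ad-GFP. A count, its FPKM and the library total together give the gene length the authors' FPKM used. For Twist1 that length was 1.63 kb in both groups, against 1628 exonic bases in the GENCODE annotation. For Zeb1 it was 4.46, 4.18, 3.85 and 4.43 kb in Ad-GFP and 5.40, 5.40, 5.58 and 4.95 kb in Ad-Cre, so that the groups did not overlap and Ad-Cre was at 126% of Ad-GFP. Among 10064 genes with at least 1 FPKM and 100 counts in every library the median was 100%, and 0.179% of genes shifted as far in either direction. Of 12 annotated Zeb1 transcripts the longest, the coding transcript Zeb1-201, has 5801 bases and the next 2768 bases. Whether the mix of Zeb1 transcripts changed was not tested, since counts per transcript were not used here. The sources used here do not say whether the deposited counts are plain read tallies or rounded estimates. If they are estimates, the Zeb1 value of 62.7% and the count ratios given for these genes depend on how they were made. Zeb2 (101%), Grhl2 (104%) and Esrp1 (101%) shifted less. For Suv39h1 the length was 2.88, 2.91, 2.94 and 2.9 kb in Ad-GFP. In Ad-Cre it was 2.78, 2.81, 2.77 and 2.83 kb, slightly shorter with no overlap, and the reason was not tested.

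**Figure D3:**
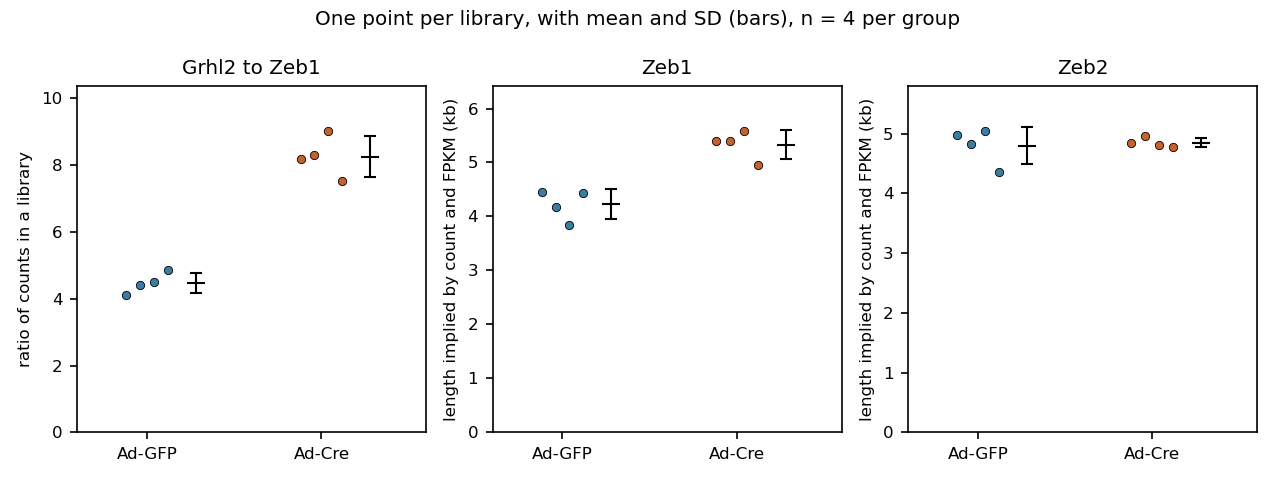
Left, ratio of Grhl2 to Zeb1 counts within a library; middle and right, length in kb implied by count and FPKM for Zeb1 and Zeb2. Points are the 4 libraries of a group and bars the mean and SD. The ratio and the Zeb1 length are higher in all Ad-Cre libraries, while the Zeb2 lengths overlap.

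Zeb2, the ZEB paralog, moved far less than Zeb1. It is on chromosome 2 at 44983632 to 45117395, minus strand. In replicate order the Ad-GFP libraries held 34, 37, 36.9 and 33.9 CPM, and the Ad-Cre libraries 33.5, 32.1, 31.4 and 32.1 CPM. The groups came close without overlapping, and Ad-Cre was at 90.9% of Ad-GFP (95% interval 84.9% to 97.4%; edgeR adjusted p = 0.0256). This call was lost in 5 of 18 alternatives: DESeq2 (adjusted p = 0.0843), and edgeR without Ad-GFP replicate 2 (0.0909), Ad-GFP replicate 3 (0.0831), Ad-Cre replicate 3 (0.07) or Ad-Cre replicate 4 (0.0505). The authors' deposited table gives Zeb2 an FDR of 0.101. The ratio of Zeb2 to Zeb1 counts within a library, which no scaling affects, was 1.95 to 2.43 in Ad-GFP and 2.97 to 3.33 in Ad-Cre, a description chosen after the values were seen.

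The SNAI genes were scarce. Snai1, the classical early repressor of Cdh1, had 15, 9, 17 and 9 counts in Ad-GFP replicates 1 to 4 and 5, 14, 8 and 8 in Ad-Cre replicates 1 to 4. The Ad-Cre counts lie mostly lower but overlap, and the interval of 34.3% to 94.1% of Ad-GFP is wide (edgeR adjusted p = 0.0687). Leaving out replicate 2 of Ad-GFP let it pass (adjusted p = 0.0466), as did leaving out replicate 2 of Ad-Cre (0.0379). Snai2, also called Slug, was at 3.21, 2.21, 2.96 and 3.75 CPM in Ad-GFP and 1.90, 2.40, 2.21 and 2.81 CPM in Ad-Cre, 77.8% of Ad-GFP (interval 60.1% to 101%; adjusted p = 0.115, and 0.0403 without Ad-GFP replicate 2). The third family member, Snai3, had means of 0.713 ± 0.18 and 0.802 ± 0.19 CPM (SD, 4 libraries each; edgeR adjusted p = 0.725).

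Prrx1 was at 1.5 to 2.06 CPM in Ad-GFP and 1.01 to 1.85 CPM in Ad-Cre, 75.6% of Ad-GFP with an interval of 55% to 104% (edgeR adjusted p = 0.157). Its ranges overlapped, and it had 21 to 36 counts a library. The paralog Prrx2 had 1 to 10 counts and was not tested.

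**Figure D4:**
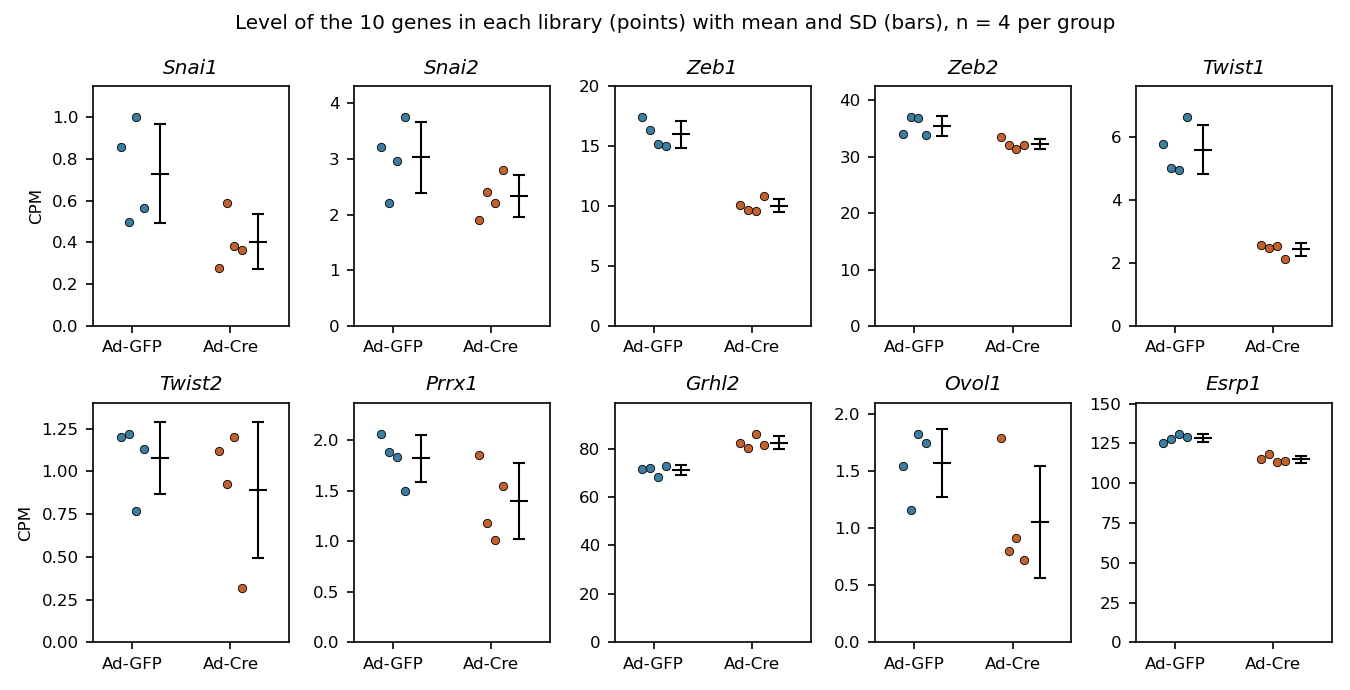
CPM of each gene in the 4 Ad-GFP and 4 Ad-Cre libraries (points), with mean and SD (bars) and axes from 0. The groups separate in Zeb1, Zeb2, Twist1, Grhl2 and Esrp1, and Ad-Cre replicate 1 sits apart from the other Ad-Cre libraries in Ovol1.

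Grhl2, a grainyhead-family activator of epithelial junction genes, was the 1 gene of the 10 that rose. It lies on chromosome 15 at 37233036 to 37363569, plus strand. Its level under Ad-GFP was 71.7, 72, 68.4 and 72.7 CPM, and under Ad-Cre 82.3, 80.2, 86.1 and 81.3 CPM, in replicate order. All of the latter lie above all of the former. The rise was small, to 116% of Ad-GFP (95% interval 110% to 122%; edgeR adjusted p = 1.865e-05). In FPKM the groups overlapped, at 16.91 to 18.45 in Ad-GFP and 18.3 to 21.21 in Ad-Cre, and limma on log2(FPKM + 1) did not call it (adjusted p = 0.0819). With Zeb1 falling, the ratio of Grhl2 to Zeb1 counts within a library went from 4.11, 4.41, 4.51 and 4.85 in Ad-GFP to 8.17, 8.30, 9.01 and 7.51 in Ad-Cre. This pair was chosen after the values were seen, so the ratio is a description. The relatives Grhl1 (91.4% of Ad-GFP, adjusted p = 0.685) and Grhl3 (77.1%, adjusted p = 0.358) were below 2 CPM and did not pass.

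Esrp1, the epithelial splicing regulator, fell slightly while its paralog Esrp2 rose. Esrp1 (chromosome 4 at 11331933 to 11386783, minus strand) reached 125, 128, 131 and 129 CPM under Ad-GFP and 115, 118, 113 and 114 CPM under Ad-Cre, in replicate order. The groups did not overlap and Ad-Cre was at 89.8% of Ad-GFP (95% interval 86.3% to 93.5%; edgeR adjusted p = 7.604e-05), a call that held in all 18 alternatives. Esrp2 went from 63.2 ± 2.6 to 69.7 ± 3.6 CPM (SD, 4 libraries each), 110% of Ad-GFP, with an edgeR adjusted p of 0.00678, but 0.0919 by limma on log2(FPKM + 1). Within a library Esrp1 had 1.94 to 2.12 times the counts of Esrp2 in Ad-GFP and 1.53 to 1.75 times in Ad-Cre, which is again a description. Both genes remained expressed in both groups, at 18.8 FPKM for Esrp2 in Ad-GFP.

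Ovol1, a zinc finger repressor of Zeb1 in epithelia, was scarce and rested on 1 library. The Ad-GFP libraries held 1.55, 1.16, 1.83 and 1.75 CPM in replicate order. The level was 1.79 CPM in Ad-Cre replicate 1 but 0.799, 0.913 and 0.725 CPM in replicates 2 to 4. With all libraries it did not pass (log2 fold change -0.61 ± 0.27, SE, n = 4 per group; edgeR adjusted p = 0.0782), and without Ad-Cre replicate 1 it did (log2 fold change -0.95, adjusted p = 0.00744). It also passed by limma-voom (adjusted p = 0.0464). The pseudogene Gm31166 on the other strand overlaps 19.8% of its exonic bases. Of its relatives, Ovol2 was at 111% of Ad-GFP (adjusted p = 0.532), and Ovol3 had 0 counts in every library, which allows up to 0.188 CPM in the shallowest.

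An exact permutation test of CPM, two-sided, gave p = 0.0286 for each of Zeb1, Zeb2, Twist1, Grhl2 and Esrp1, the smallest that 4 against 4 libraries allow, and 0.0857 to 0.486 for the other 5. These p-values of 10 tests are unadjusted.

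Lists of related genes are described by their counts, and a share of called genes near the 40.3% of all tested genes is no result about a list. TWIST proteins pair with E proteins, and ID proteins block that pairing. Of 7 tested genes of this kind 3 fell and 0 rose, against 20.5% lower and 19.8% higher of all tested genes. The share called in either direction is close to the 40.3% of all genes, while the share of falls is above 20.5%. With 7 genes this is only a description. The inhibitor genes Id3 and Id1 were at 55% and 80.6% of Ad-GFP (edgeR adjusted p = 1.603e-07 and 0.00389), and the E protein gene Tcf4 at 90.8% (adjusted p = 0.0120, and 0.0761 by limma on log2(FPKM + 1)). Other transcription factors linked to EMT numbered 12 tested, of which 6 rose and 1 fell (median log2 fold change 0.08). Foxc1, a forkhead factor, rose to 130% (adjusted p = 1.651e-05), and Ets1 and Sox4 to 109% and 107%. The Ets1 call was lost on log2(FPKM + 1) (adjusted p = 0.151).

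Transcription factors of epithelial and nephron identity other than the 3 above were tested next, with 6 rises and 2 falls among 13 tested (median log2 fold change 0.11). Tfcp2l1, a grainyhead-related factor of the distal nephron, rose to 121% and Pax2, a factor of kidney development, to 128% of Ad-GFP (edgeR adjusted p = 2.337e-07 and 5.858e-06). Hnf4a, Foxa2 and Trp63, of the same list, were below the count filter.

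Known targets of the drivers did not shift together on the epithelial side. Of 25 epithelial genes that SNAI, ZEB or OVOL and GRHL factors are described to control, 10 rose and 7 fell, and the median log2 fold change was -0.01. With upper-quartile scaling the counts were 9 and 9. The 3 smallest p-values were those of keratin genes, which fell: Krt19 to 68.5% (edgeR adjusted p = 5.699e-15), Krt8 to 77.6% (5.467e-14) and Krt18 to 83.6% of Ad-GFP (7.018e-11). Outside the naming rule, and after their values were seen, Cdh1, Epcam and Rab25 are added. Cdh1 had means of 700.2 ± 17 CPM under Ad-GFP and 677 ± 7.0 CPM under Ad-Cre (SD, 4 libraries each), a level of 96.7% (edgeR adjusted p = 0.0606), and 8 of 18 alternatives called it lower. The adhesion gene Epcam rose to 118% and the small GTPase gene Rab25 to 116% (adjusted p = 4.684e-09 and 0.000313).

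The E-box CAGGTG, or CACCTG on the other strand, is the sequence to which SNAI and ZEB proteins are known to bind. It was present within 250 bases before a RefSeq start in 13 of 17 of these epithelial genes that have a promoter entry, against 19.4% of 27025 genes of the promoter table, in 0 of 10 mesenchymal target genes, and in 1 (Snai1) of the 5 EMT and epithelial factors with an entry. The epithelial list was chosen from genes described as targets, so its share is a description and no evidence of binding here. The motif did not separate the directions: it was in 5 of 6 such genes that rose, 3 of 5 that fell and 5 of 6 that did not pass. Epcam (chr17:87635729-87635978, plus strand) and Rab25 (chr3:88548280-88548529, minus strand) rose and have 2 copies each, and Krt8 (chr15:102004343-102004592, minus strand) fell and has 1. Their upstream sequences follow, from RefSeq on GRCm38.p6, with the E-box in capitals.
Epcam: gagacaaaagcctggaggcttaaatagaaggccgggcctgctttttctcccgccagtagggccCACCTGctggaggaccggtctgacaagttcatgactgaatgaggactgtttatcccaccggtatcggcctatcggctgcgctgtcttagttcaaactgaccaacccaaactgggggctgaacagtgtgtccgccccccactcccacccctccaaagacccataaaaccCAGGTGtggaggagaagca
Rab25: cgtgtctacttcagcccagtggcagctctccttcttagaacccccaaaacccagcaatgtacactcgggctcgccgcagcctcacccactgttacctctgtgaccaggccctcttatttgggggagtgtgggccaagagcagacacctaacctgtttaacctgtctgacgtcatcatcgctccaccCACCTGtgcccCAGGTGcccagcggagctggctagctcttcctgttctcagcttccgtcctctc
Krt8: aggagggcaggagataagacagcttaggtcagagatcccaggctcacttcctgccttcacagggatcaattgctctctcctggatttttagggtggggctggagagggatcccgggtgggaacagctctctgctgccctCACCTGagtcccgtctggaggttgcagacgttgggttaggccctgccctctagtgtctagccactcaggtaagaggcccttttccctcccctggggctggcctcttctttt

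On the mesenchymal side the median log2 fold change was -0.22, and of 17 tested target genes 10 fell while 2 rose. The smooth muscle actin gene Acta2, the intermediate filament gene Vim and the fibronectin receptor gene Itga5 had the smallest p-values, at 53.0%, 66.3% and 68.6% of Ad-GFP (edgeR adjusted p = 1.316e-19, 1.051e-14 and 2.792e-14). Reads of Acta2 may be shared with the other actin genes. The neural cadherin gene Cdh2, picked out after its value was seen and the classical counterpart of Cdh1 in EMT, rose to 115% (adjusted p = 4.573e-08).

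**Figure D5:**
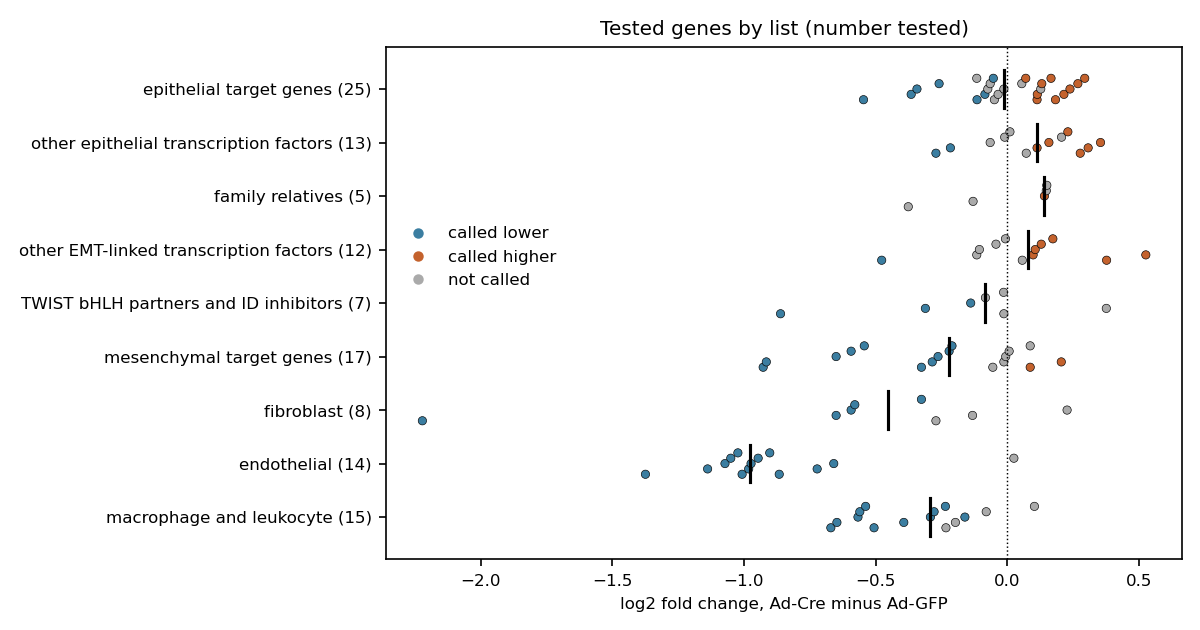
Log2 fold change (Ad-Cre minus Ad-GFP) of each tested gene in 9 lists, with the list median as a black bar and colours for edgeR's call. Epithelial targets lie on both sides of 0, and most mesenchymal targets and nearly all endothelial markers lie below it.

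Markers of other cell types moved in the same libraries as Zeb1, Zeb2 and Twist1. Endothelial cells and macrophages are both known to express ZEB factors. Of 14 tested endothelial markers 13 fell and 0 rose, and their summed level went from 182 to 186 CPM in Ad-GFP to 89.3 to 99.9 CPM in Ad-Cre. Cdh5 and Pecam1 were at 48.3% and 49.7% of Ad-GFP. Among macrophage and leukocyte markers 11 of 15 fell and 0 rose (326 to 378 CPM against 285 to 296 CPM), Lyz2 was at 89.5% and Csf1r at 82.5%, and the T cell gene Cd3e had 0 counts. Of 8 tested fibroblast markers 5 fell and 0 rose (731 to 779 CPM against 468 to 542 CPM), including Vim and Col1a1 (63.7%), which are also among the mesenchymal targets, and, chosen after its value was seen, Thy1 at 21.5%. Of 6 tested mural markers 4 fell (266 to 280 CPM against 232 to 245 CPM), with Mcam at 91.7% and Notch3 at 105% (adjusted p = 0.224). All 6 proliferation genes fell (151 to 161 CPM against 82.4 to 92.6 CPM), with Mki67 at 54.3% and Mcm6 at 61.8%. The part of these cell types in the falls of Zeb1, Zeb2 and Twist1 was not tested.

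Beside the rise of Grhl2 and the fall of Esrp1, the 12 epithelial markers summed to 5880 to 6090 CPM in Ad-GFP and 5460 to 5550 CPM in Ad-Cre, with 5 rises and 5 falls. Their median log2 fold change was 0, and abundant genes weigh most in such a sum. The falls, listed after their values were seen, were Krt8 (mean 1504 CPM in Ad-GFP, 1168 in Ad-Cre), Krt18 (968.5, 809.3), Krt19 (200.8, 137.4), Krt7 and Cldn4. Proximal tubule markers rose in 4 of 5 tested and fell in 0 (114 to 129 CPM against 162 to 186 CPM), with Ggt1 at 150% and Havcr1 at 154.4%, while Slc34a1, Slc5a2 and Hnf4a were below the filter. Of 7 tested distal nephron markers 3 rose and 2 fell (190 to 197 CPM against 226 to 235 CPM), with Scnn1a at 125%, and Aqp2 had 0 counts. The falls, named after their values were seen, were larger: Slc12a1 to 37.2% and Calb1 to 29.05% (edgeR adjusted p = 0.000469 and 3.84e-05). Both genes were scarce, at means of 1.438 and 1.442 CPM in Ad-GFP, and weigh little in the sum. Of 5 tested podocyte markers 1 rose and 3 fell (171 to 185 CPM against 180 to 184 CPM), with Podxl at 82.9% and Synpo at 152%. Their part in the Grhl2 and Esrp1 values was not tested.

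Among 18 corepressors and chromatin partners of SNAI and ZEB proteins 4 rose and 5 fell, Suv39h1 among the falls. The shares are near the 19.8% higher and 20.5% lower of all tested genes. The polycomb gene Bmi1 rose to 118%, and Ctbp2, a C-terminal binding protein through which ZEB1 represses, fell to 88.8% (edgeR adjusted p = 1.606e-05 and 0.000207). The paralog Ctbp1, added after its value was seen, was at 101.6% of Ad-GFP (edgeR adjusted p = 0.631). Of 10 genes of SNAI1 protein turnover 2 rose and 2 fell, again near those shares. Usp27x, a deubiquitinase described to stabilise SNAI1, was at 66.7%, Csnk1e, a casein kinase gene, at 93.7%, and the Hippo kinase gene Lats2 at 114% of Ad-GFP (adjusted p = 4.8e-10, 0.00631 and 1.852e-06).

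Of 9 splicing regulators of EMT 4 rose and 2 fell. Celf1 was at 110.5%, Ptbp1 at 92.1% and Rbm47 at 117% of Ad-GFP, all called by edgeR, and on log2(FPKM + 1) the Ptbp1 and Rbm47 calls were lost (adjusted p = 0.0694 and 0.63). Of 6 genes whose splicing ESRP proteins are known to control, 4 rose and 1 fell in total count. The growth factor receptor gene Fgfr2 was at 130%, the p120-catenin gene Ctnnd1 at 111% and the actin regulator gene Enah at 92.6% of Ad-GFP (adjusted p = 9.514e-10, 7.261e-07 and 0.000520). Counts per gene do not show which isoforms these were.

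For all but Twist2 and Snai1, whose means lay under 1 CPM, the most similar profiles over the 8 libraries were found by Pearson correlation of log2 CPM among 10692 tested genes of at least 5 CPM. Zeb1 was most like Paics (r = 0.997) and Stra6 (0.996), Twist1 like Aldh3a2 (0.997) and Synm (0.992), and Zeb2 like Klf4 (0.979) and Cyc1 (0.962). Grhl2 was most like Slc4a7 (0.995) and Slc30a9 (0.991), and Esrp1 like Eps8 (0.992) and Esyt2 (0.989). For the scarce genes the nearest were Ptger4 (0.966) and Ahi1 (0.964) for Snai2, Tsn (0.961) and Thoc6 (0.943) for Prrx1, and Mark4 (0.979) and Fbxo36 (0.952) for Ovol1. All points share the 2 groups and the same libraries, and the matches were the highest of many, so these values describe the 8 libraries only.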

How the data were processed

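RNA was sequenced from 8 samples in 2 groups. The deposited counts are whole numbers for each gene, and may be plain tallies or rounded estimates; the authors' FPKM and its group means stand beside them in the same deposited table. The authors' log2 fold change, p-value and FDR are deposited without a named test, and of these only the FDR of Zeb2 is quoted. GRCm38 and mm10 are the builds listed by the submitters' processing notes. No aligner, counting tool or strand setting is given in the sources used here. The deposited counts were tested without change in edgeR 4.0.16 under R 4.3.3 (filterByExpr, TMM factors of 0.992 to 1.01, quasi-likelihood F-test, Benjamini-Hochberg adjustment over 13337 genes). Each standard error follows from the log2 fold change and its F value, intervals use 25.2 degrees of freedom, and CPM uses TMM-scaled totals. The fit was tested on simulated data with 200 genes changed, where 10.7% of calls were false, above the threshold of 0.05. In the real data 40.3% of tested genes were called, so that share cannot be carried over to these calls. Calls close to the threshold may be less certain than their adjusted p states. Positions come from GENCODE M21 (GRCm38) and promoters from RefSeq (GRCm38.p6). Promoters on chromosome 18, where Zeb1 lies, were left out of the motif search, and the promoters that were used held 5 of the 10 genes. Replicate pairs differed by more than sampling noise (chi-square per degree of freedom 1.83 to 3.35). Intervals cover the spread between these libraries only, and the limit for 0 counts (3 counts) covers counting error only.

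The genes and lists were chosen with earlier results of these data known. The naming rule takes the 10 genes, Suv39h1, their family relatives, the 3 tested genes of smallest p in each other pathway list, the 2 of highest CPM in each cell type list, and the 2 most similar profiles of each gene with at least 1 CPM. The miR-200 and miR-205 loci were listed and not analysed here. A gene that the rule names is not reported here. Alternatives were RLE and upper-quartile factors, no filter, a filter of 5 CPM, DESeq2 1.42.0, limma-voom (limma 3.58.1), the replicate block, limma on log2-transformed FPKM (pseudocounts 1 and 0.1, mean FPKM at least 1), thinning to the smallest library total, and leaving out each library.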

Additional observations from a re-analysis of the deposited data

Results flagged for a closer look

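Of 150 groups of 4 libraries (75 named genes in Ad-GFP and Ad-Cre), 8 held a library whose gap to the nearest other exceeded 82.9% of the group's range. Chance gives about 1 in 20 groups, so this number is near what chance gives. None of the 10 EMT and epithelial factors is among them. In Ad-GFP replicate 3, Ovol2 was at 1.89 CPM against 2.5 to 2.6 CPM in the others, and Ets1 at 182 CPM against 174 to 175 CPM. In Ad-GFP replicate 4, Usp27x was at 51.9 CPM against 47.8 to 48.3 CPM, and Celf1 at 193 CPM against 201 to 202 CPM. Mcam was at 144 CPM in Ad-GFP replicate 1 against 150 to 151 CPM. In Ad-Cre, Bmi1 was at 73.5 CPM in replicate 4 against 79.4 to 80.5 CPM, Slc4a7 at 80.2 CPM in replicate 3 against 72.9 to 73.4 CPM, and Fbxo36 at 6.04 CPM in replicate 1 against 3.71 to 3.99 CPM.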

How the results depend on the processing

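No fold change of the 10 genes changed sign under any of the alternatives that could test it. The count of genes called moved from 5370 to 3530 and 3520 by limma on log2(FPKM + 1) and log2(FPKM + 0.1), with fewer genes tested (11679), and was 4816 to 5084 without 1 library. The 1 rise among the 10 genes became 0 under both FPKM fits and stayed at 1 without any 1 library, while the 4 falls ranged from 3 to 5 without 1 library. Over the alternatives, the log2 fold change ranged from -1.26 to -0.84 for Twist1, -0.99 to -0.63 for Zeb1, -0.17 to -0.12 for Zeb2, 0.12 to 0.22 for Grhl2 and -0.20 to -0.15 for Esrp1. The calls that were lost or gained among the 10 stand beside their results; the cause was not tested. Of 72 other named genes tested, 55 kept their call under every alternative run, 47 fits lost a call, 13 gained one and 0 reversed a called direction. The fold change of Grhl1, which was not called, changed sign without Ad-GFP replicate 4 (0.09).

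Same-numbered libraries of the 2 groups had deviations from their group means correlated at 0.083, 0.104, 0.008 and -0.012. Of 8 libraries 4 correlated best with their own number, which does not decide whether the numbers mark pairs. No label states a pairing, so the main fit did not treat the numbers as pairs. With the replicate block 5390 genes were called, with 1 rise and 4 falls among the 10. The depth limits the scarce genes: Snai1, Twist2, Prrx1 and Ovol1 had 5 to 36 counts in a library.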
